A study of Mus musculus with 3 samples.

Results

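Autophagy is the process by which a cell wraps part of its own contents in a double membrane and delivers it to the lysosome for breakdown. The genes described here are 38 core autophagy genes, matched by symbol in the transcript identifiers of the deposited tables. All 38 were found among 55536 annotated genes. The samples were 3 libraries of total RNA from the chromatin fraction of bone-marrow-derived macrophages of C57BL/6J mice, which form a single group. The cells were exposed to 100 ng/ml Lipid A for 12 h, kept in washout for 12 h, and given 100 ng/ml Lipid A again for 60 min. Lipid A is the part of bacterial lipopolysaccharide that the receptor TLR4 recognises. Ribosomal RNA was depleted, fragments were 250 to 400 bases long, and the starting RNA was 1000, 250 and 500 ng in replicates 1, 2 and 3. Sex and age were not collected. The replicates carry the same donor entry, and the labels name neither separate animals nor separate cultures for them, which means that p-values measure the spread between these libraries and that it may be technical. No untreated or singly treated sample was analysed here, so the values below are levels and not responses to Lipid A.

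In mammalian autophagy the ULK kinase complex and a class III phosphatidylinositol 3-kinase complex start a cup-shaped membrane called the phagophore. ATG9 and ATG2 supply it with lipid, and a ubiquitin-like conjugation system attaches ATG8 proteins, the LC3 and GABARAP families, to it. Cargo receptors link marked cargo to the ATG8 proteins, and SNARE proteins fuse the closed vesicle with the lysosome. In macrophages the pathway also takes part in the removal of intracellular bacteria and in the control of inflammation. RNA of the chromatin fraction is enriched in nascent and unexported transcripts, so a level here is not the level of mature mRNA or of protein.

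In the test described below, 9 of 23 autophagy genes had more RNA assigned to annotated isoforms that retain an intron than to protein-coding isoforms. The threshold was a limma adjusted p under 0.05, and 24.3% of all genes tested passed it in this direction. With expected counts, not divided by isoform length, 5 of the 23 did. Sqstm1 was not among these. The letters at which such an isoform runs past a splice site are shown for the 5 of them with the most retained-intron RNA. These bases are only a part of those that separate the classes. The isoform shown need not hold the most RNA of its class, as Atg4b-202 averaged 3.76 TPM and Atg4b-207 7.97. Each line gives 20 exonic bases in lower case and the first 30 bases of the intron in capitals, read 5′ to 3′ on the strand of the gene from the GENCODE M21 transcripts and placed on mm10. Each of the 5 introns lies between coding exons.
Sqstm1-207, chr11:50205993-50206042, minus strand: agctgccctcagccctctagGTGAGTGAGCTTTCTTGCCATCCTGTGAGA
Uvrag-202, chr7:98979606-98979655, minus strand: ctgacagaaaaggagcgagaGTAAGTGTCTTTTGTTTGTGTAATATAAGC
Becn1-210, chr11:101294940-101294989, minus strand: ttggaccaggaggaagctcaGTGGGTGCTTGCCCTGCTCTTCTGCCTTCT
Atg16l1-204, chr1:87786327-87786376, plus strand: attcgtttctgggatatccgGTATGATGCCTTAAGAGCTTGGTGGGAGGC
Atg4b-202, chr1:93775681-93775730, plus strand: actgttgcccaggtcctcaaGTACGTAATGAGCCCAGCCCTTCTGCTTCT
In every one of these lines the capitals begin with GT, the usual first letters of an intron, because the isoforms were chosen so. The isoforms of Becn1 and Atg4b hold the whole intron, of 822 and 2584 bases. Those of Sqstm1, Uvrag and Atg16l1 hold only the beginning of theirs, of 2988, 39666 and 2984 bases. Over all the autophagy genes, 31 introns of protein-coding isoforms were held whole by a retained-intron isoform, in 14 genes, and all 31 begin with GT and end with AG.

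Expected counts assigned to genes summed to 12602702, 17222239 and 17042691 in replicates 1, 2 and 3. At these depths 3 counts correspond to 0.238, 0.174 and 0.176 CPM (counts scaled to library size), a floor that covers counting error only. All 10 macrophage markers were detected, with summed counts of 43956, 50567 and 39058. Replicate 2 stood apart, since the 11 fibroblast and stromal markers summed to 3, 48220 and 116 counts and all 11 were highest there. None of 10 neutrophil markers exceeded 3 counts in a library, and 7 were at 0 in all of them. T and NK cell markers summed to 118, 96 and 63 counts, and B cell markers to 90, 152 and 16. Only 2 of 10 T and NK cell markers and 2 of 8 B cell markers exceeded 3 counts in any library. In bulk RNA, fewer cells of a type and less RNA per cell cannot be told apart.

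Most autophagy genes were detected at moderate levels in chromatin RNA. Their median level, in TPM (read counts per unit of transcript length, scaled to the same total in each library), was 8.58, 18.2 and 12.8 in replicates 1, 2 and 3, or 13.2 ± 4.84 (SD, n = 3). The same median over the 15865 protein-coding genes with a count was 2.51 ± 1.29 TPM, and over the 10011 with a mean of at least 1 TPM it was 8.17 ± 2.83. Of the 38 genes, 36 were at 1 TPM or more in every library, the exceptions being Wipi1 and Map1lc3a. Of the 10011 protein-coding genes, 8576 were. In every library 17 of 38 (44.7%) reached 10 TPM, and 1, Sqstm1, reached 100 TPM. The share at 10 TPM was 23.2% of the protein-coding genes with a count. It was 36.8% of those with a mean of at least 1 TPM, a mean that all 38 reached. No test was made of this difference, since well-known genes were chosen by name and no second group exists. The order of the levels was loose below the top. Between neighbours in that order the library ranges failed to overlap for only 2 of 37 pairs, Sqstm1 above Optn and Gabarap above Atg16l2. A Spearman correlation of level with gene length in the genome was 0.09 over the 38 genes and 0.16 over the 10011 protein-coding genes, a description over genes of the same libraries.

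**Figure D1:**
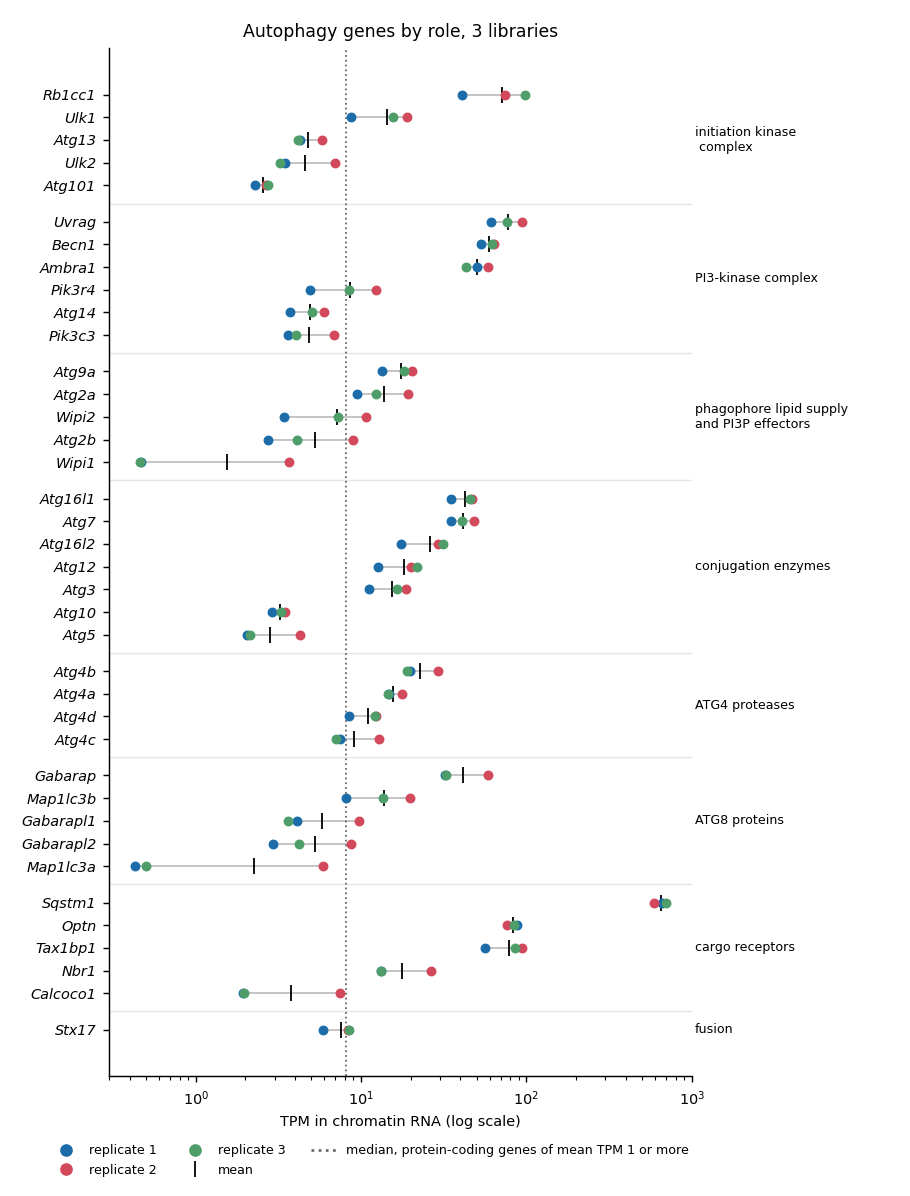
Level of each autophagy gene in TPM on a log axis, with 1 point per library, a bar at the mean and genes grouped by role; the dotted line is the median of protein-coding genes with a mean of at least 1 TPM (8.17). Sqstm1 lies above all others at 652 TPM, and the widest gaps between replicate 2 and the other libraries are those of Wipi1 and Map1lc3a.

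The initiation complex was led by its scaffold. Rb1cc1, which encodes the scaffold FIP200, was at 41.0, 74.8 and 97.9 TPM, a mean of 71.2 ± 28.6 (SD, n = 3). Replicate 3 was highest and replicate 1 lowest, and no library of another subunit reached the lowest value of Rb1cc1. Ulk1, the main kinase of the complex, was at 8.66, 19.0 and 15.5 TPM. Its relative Ulk2 was at 3.47, 7.0 and 3.25 TPM, and its highest value was below the lowest of Ulk1. The adaptor genes Atg13 and Atg101 averaged 4.75 ± 0.94 and 2.56 ± 0.23 TPM, and Atg101 was the lowest of the complex, with 19 to 26 counts per library. The complex had a median of 5.14 ± 1.61 TPM, so its scaffold gene stood far above the other 4 subunits.

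In the phosphatidylinositol 3-kinase complex Uvrag, Becn1 and Ambra1 were high, while the catalytic Pik3c3, Pik3r4 and Atg14 were low. Uvrag, a Beclin 1 partner that marks the endosomal form of the complex, was at 61.0, 94.7 and 76.9 TPM. Becn1, which encodes Beclin 1, was at 53.6, 63.4 and 62.4 TPM, a coefficient of variation of 9.05%. Ambra1, which encodes a Beclin 1-binding regulator, was at 50.4, 58.6 and 42.9 TPM. The ranges of these 3 genes overlapped between neighbours, while all lay above the highest value of the remaining members, 12.3 TPM. That order did not hold with protein-coding isoforms only, where Ambra1 averaged 28.3 TPM, Uvrag 6.38, Pik3c3 4.72 and Becn1 3.22. Pik3c3, the catalytic subunit VPS34, was at 3.62, 6.91 and 4.06 TPM. Pik3r4, the regulatory kinase VPS15, averaged 8.56 ± 3.68 TPM and Atg14, which directs the complex to autophagy, 4.93 ± 1.14 TPM (SD, n = 3). Measured against the exons of other genes, 43.9% of the exonic bases of Becn1 (3104 bases) are shared with Cntd1 on the opposite strand, and 1589 bases of Uvrag with the antisense gene Gm45187. Exons of 13 of the 38 genes overlap those of another gene on the opposite strand. Strand handling in the counting is not given in the sources used here, so reads of such pairs cannot be told apart. Cntd1 was listed at 1.54 to 2.01 TPM.

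Among the genes for lipid supply and for readers of phosphatidylinositol 3-phosphate, Atg9a had the highest mean over all isoforms. Atg9a, the transmembrane lipid scramblase, averaged 17.4 ± 3.55 TPM (SD, n = 3). The lipid transfer protein genes Atg2a and Atg2b averaged 13.7 ± 5.09 and 5.29 ± 3.29 TPM. The library ranges of Atg9a and Atg2a overlapped. With protein-coding isoforms only the order turned, to 10.06 TPM for Atg2a and 8.66 for Atg9a. Of the lipid readers, Wipi2, which recruits ATG16L1, was at 3.43, 10.8 and 7.30 TPM. Wipi1 was at 0.47, 3.69 and 0.46 TPM, with 18, 105 and 12 counts. It was the lowest of the 38 by its mean, 1.54 TPM, and its value in replicate 2 was far above those of the other libraries, which nearly coincided.

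The conjugation enzymes had a median of 18.2 ± 4.84 TPM. At 10 TPM or more in every library were 5 of 7, beside 36.8% of protein-coding genes with a mean of at least 1 TPM. Atg16l1, which sets where LC3 is attached, was at 35.1, 46.7 and 45.7 TPM. Atg7, the E1-like enzyme, was at 35.3, 48.2 and 40.8 TPM. The ranges of these leading genes overlapped almost wholly. Atg16l2, a relative of Atg16l1, averaged 26.1 ± 7.62 TPM, the ubiquitin-like gene Atg12 18.2 ± 4.84, and the E2-like gene Atg3 15.5 ± 3.92 (SD, n = 3). The genes for the acceptor of ATG12 and for its own E2-like enzyme were low. Atg5 was at 2.05, 4.26 and 2.14 TPM and Atg10 at 2.89, 3.49 and 3.27 TPM, each below every value of the other 5 conjugation genes. The ATG4 proteases, which trim ATG8 precursors and free them from membranes, lay close together, at 22.7 ± 5.82 TPM for Atg4b, 15.7 ± 1.74 for Atg4a, 11.0 ± 2.15 for Atg4d and 9.13 ± 3.23 for Atg4c. With protein-coding isoforms only Atg4b was the lowest of these proteases, at 3.19 TPM. Atg4a was then at 6.94, Atg4d at 5.65 and Atg4c at 5.22 TPM. Atg4d shares 1405 exonic bases with Kri1 on the opposite strand, itself at 23.4 to 39.8 TPM.

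The ATG8 genes were led by Gabarap. Gabarap was at 32.5, 58.6 and 32.6 TPM and Map1lc3b, the gene of the widely used marker LC3B, at 8.15, 19.8 and 13.6 TPM. Gabarapl1 was at 4.11, 9.77 and 3.64 TPM, and Gabarapl2 at 2.95, 8.72 and 4.19 TPM. Map1lc3a, the gene of LC3A, was at 0.43, 5.88 and 0.50 TPM, with 5, 55 and 4 counts. Replicate 2 was highest for all 5 genes, beside 7718 of the 10011 protein-coding genes with a mean of at least 1 TPM. The lowest Gabarap value exceeded the highest value of every other ATG8 gene.

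Cargo receptors held the top of the list. Sqstm1, which encodes the ubiquitin-binding receptor p62, was at 659, 593 and 704 TPM, a mean of 652 ± 55.6 (SD, n = 3), the 32nd highest of the protein-coding genes with a count. The gene lies on mm10 chromosome 11 from 50199366 to 50210827 on the minus strand and held 8413, 6970 and 9326 counts. Replicate 2 was its lowest library. Optn, which encodes optineurin, a receptor for bacteria and mitochondria, was at 88.4, 76.03 and 83.7 TPM, and it too was lowest in replicate 2. Tax1bp1, a receptor that also restrains inflammatory signalling, was at 56.0, 94.1 and 85.5 TPM, overlapping the range of Optn. Nbr1, a receptor related to p62, was at 13.3, 26.6 and 13.1 TPM, and Calcoco1, a receptor for parts of the endoplasmic reticulum, at 1.94, 7.48 and 1.95 TPM. Sqstm1 was 7.88-fold above Optn by the mean TPM over all isoforms. The gap was smaller with protein-coding isoforms only, at 229 TPM for Sqstm1 and 43.7 for Optn. It was also smaller in counts, of which Optn held 2814, 2038 and 2563. Sqstm1 shares 580 exonic bases with Mrnip on the opposite strand, a gene listed at 0 to 0.49 TPM. Stx17, the SNARE of the closed vesicle, averaged 7.57 ± 1.48 TPM.

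Paralogous genes were compared in each library as the log2 ratio of TPM, each plus 0.1. Gabarap exceeded Gabarapl1 by 2.88 ± 0.28 and Gabarapl2 by 3.03 ± 0.35 on the log2 scale (SD, n = 3), in 3 of 3 libraries. Ulk1 exceeded Ulk2 by 1.65 ± 0.50, Atg2a exceeded Atg2b by 1.47 ± 0.34 and Atg16l1 exceeded Atg16l2 by 0.74 ± 0.25, again in 3 of 3 libraries. The ratio was -3.40 ± 1.47 for Map1lc3a over Map1lc3b, -2.62 ± 1.10 for Wipi1 over Wipi2 and -0.51 ± 0.19 for Atg4a over Atg4b, negative in every library. For these 8 of 10 pairs flipping signs by library in an exact two-sided test gave p = 0.25, where 3 libraries allow nothing lower, and 0.3125 after Benjamini-Hochberg adjustment over the 10 pairs. Gabarapl1 over Gabarapl2, at 0.14 ± 0.33, and Atg4c over Atg4d, at -0.30 ± 0.43, changed sign between libraries. With protein-coding isoforms alone the ratio of Atg4a over Atg4b was 1.10, the opposite direction. Over the other settings and left-out libraries the ratio of Wipi1 over Wipi2 ran from -3.19 to -1.04 (-1.25 with posterior mean TPM) and that of Map1lc3a over Map1lc3b from -5.44 to -2.52. The same ranges were 1.88 to 3.04 for Gabarap over Gabarapl1, 2.40 to 3.17 for Gabarap over Gabarapl2, 1.04 to 2.02 for Ulk1 over Ulk2, 1.10 to 1.65 for Atg2a over Atg2b and 0.47 to 1.15 for Atg16l1 over Atg16l2. Reads shared between such related genes could have been split by the authors' counting.

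**Figure D2:**
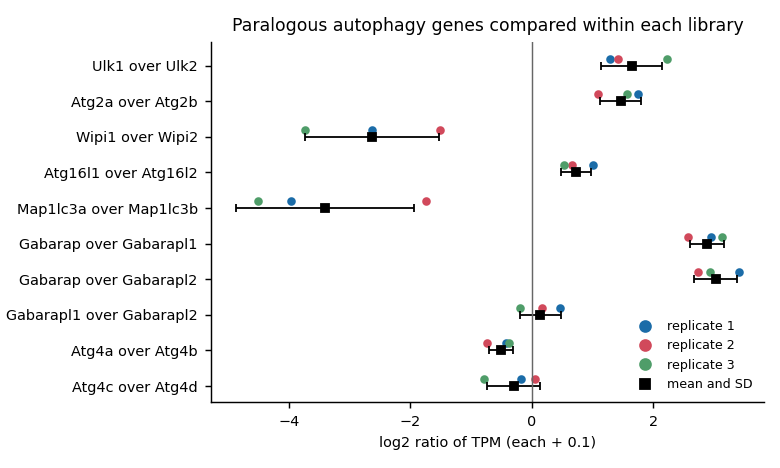
Log2 ratio of TPM (each plus 0.1) for 10 pairs of paralogous autophagy genes, with 1 coloured point per library and a square with bars for the mean and SD. The libraries lie on the same side of 0 for 8 pairs and on both sides for Gabarapl1 over Gabarapl2 and Atg4c over Atg4d.

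Most autophagy genes were highest in replicate 2, the library with stromal RNA, as were most genes. Of the 38, 31 were highest in replicate 2, 6 in replicate 3 and 1, Optn, in replicate 1. Among the 10011 protein-coding genes of at least 1 TPM, 7718 were highest in replicate 2. The difference of replicate 2 from the mean of the other libraries, in log2(TPM + 0.1), had a median of 0.46 over the autophagy genes and 0.62 over those protein-coding genes. After scaling by TMM factors the medians were -0.12 and 0.05, so differences are given below relative to the median of all genes. On TPM, 8 of 38 genes were at least 2-fold higher in replicate 2, beside 28.1% of the protein-coding genes of at least 1 TPM. With TMM factors, a scaling of this count chosen after seeing the data, 3 of 38 were, beside 12.3%. These 3 were Map1lc3a, Wipi1 and Calcoco1, and the difference of the other 5 was 0.81 for Atg2b, 0.73 for Gabarapl1, 0.71 for Gabarapl2, 0.46 for Ulk2 and 0.42 for Nbr1 on the log2 scale. Relative to the all-gene median, Map1lc3a stood 2.78 higher in replicate 2, Wipi1 2.13 and Calcoco1 1.27 on the log2 scale, and 2.80, 2.15 and 1.27 with TMM factors. The summed stromal markers, at 3, 48220 and 116 counts, were high in the same library, and their part in these differences was not tested. In the other direction, 2 of 38 genes, Sqstm1 and Optn, were below the other libraries in replicate 2 on TPM, beside 12.6%. With TMM factors 20 of 38 were, beside 46.1%. The relative differences of Sqstm1 and Optn were -0.82 and -0.80, and -0.84 and -0.82 with TMM factors. Without replicate 2 the median level of the 38 genes was 10.7 TPM. Rb1cc1, Atg12, Atg16l2, Atg101 and Stx17 were, with Sqstm1, the 6 genes highest in replicate 3.

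**Figure D3:**
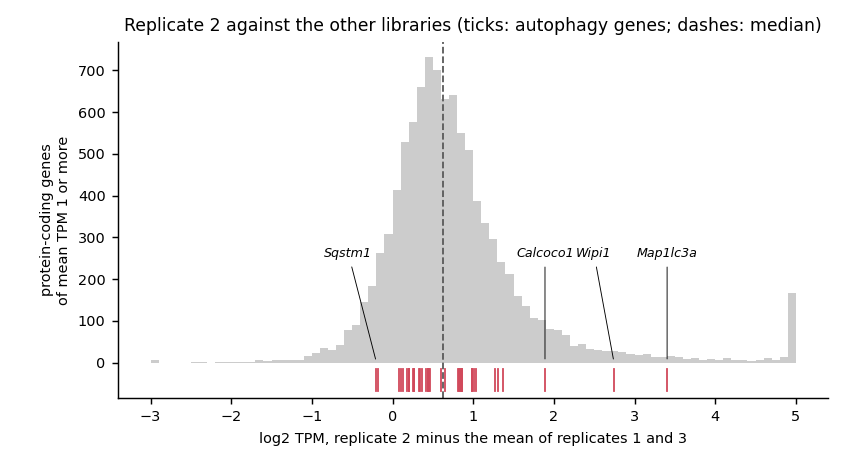
Histogram over 10011 protein-coding genes of the log2 difference in TPM (plus 0.1) between replicate 2 and the mean of replicates 1 and 3, with values past the ends gathered in the end bins; red ticks are the 38 autophagy genes and the dashed line is the median of 0.62. Map1lc3a, Wipi1 and Calcoco1 lie on the right, and Sqstm1 lies below 0.

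The leading isoform by mean TPM was of the protein-coding class for 23 genes, retained an intron for 14 and was a processed transcript for 1, Atg4c. Among 9999 protein-coding genes of at least 1 TPM with isoforms listed, the shares were 70.5%, 21.7% and 5.54%. The same isoform led in all 3 libraries for 20 of the 38 genes, beside 53.6%. Becn1 had 83.3 ± 0.85% of its TPM in retained-intron isoforms and 5.32 ± 1.09% in protein-coding ones (SD, n = 3). Uvrag had 73.3% and 8.18%. At the other end Atg101, Gabarapl1, Stx17 and Wipi1 were assigned wholly to protein-coding isoforms. For Atg101, Gabarapl1 and Stx17 no other class is annotated, so that share was fixed in advance. Because chromatin RNA is enriched in nascent transcripts, unspliced precursor and retained-intron isoforms cannot be told apart in these shares. A class share also depends on what is annotated, since the tables hold annotated isoforms only and 13 of the 38 genes have no retained-intron isoform at all. Those are Ulk2, Atg13, Atg101, Pik3c3, Ambra1, Wipi1, Atg5, Atg10, Atg4c, Map1lc3a, Gabarapl1, Optn and Stx17. Optn had 47.1% and Ambra1 43.8% of their TPM in processed transcripts, which the annotation gives no coding frame.

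**Figure D4:**
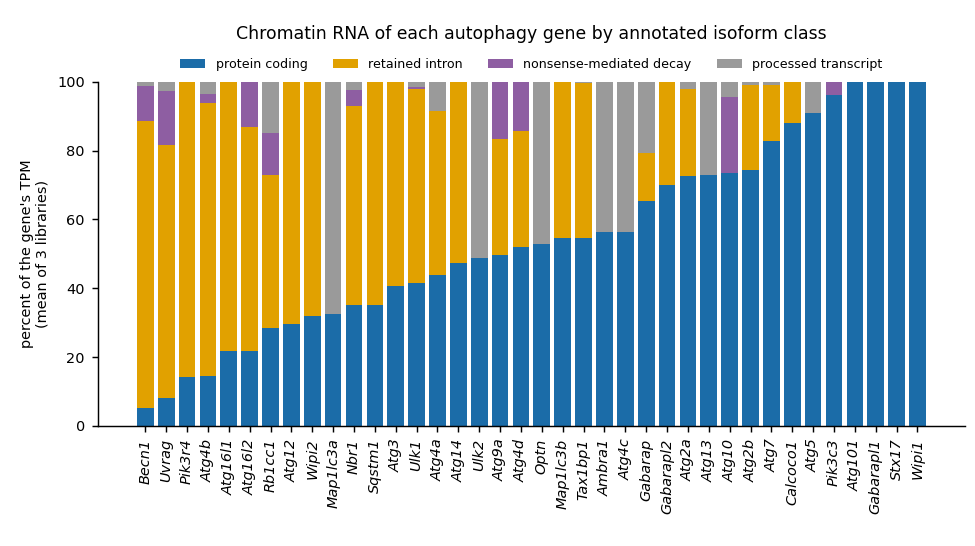
Percent of each gene's TPM in the annotated isoform classes, as the mean of 3 libraries, with genes ordered by the protein-coding share. Becn1 (5.32% protein coding) and Uvrag (8.18%) stand at the left, and 4 genes assigned wholly to protein-coding isoforms at the right. Of these, Atg101, Gabarapl1 and Stx17 have no other annotated class.

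The balance between the classes was tested with limma across all 4311 genes that had both classes and a mean summed level of at least 5 TPM. The value tested was the log2 ratio of retained-intron over protein-coding TPM, each plus 0.1, against 0. Of the 25 autophagy genes with both classes, 23 were tested, while Atg14 at 4.92 TPM and Calcoco1 at 3.79 TPM fell short. More RNA was assigned to retained-intron isoforms in 9 of the 23 (Benjamini-Hochberg adjusted p under 0.05), beside 24.3% of all genes tested. Protein-coding isoforms held more in 5 of the 23, beside 25.6%, and 9 did not pass. The median ratio was 0.54 over the 23 genes and -0.06 over all 4311.

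Becn1 had the largest ratio of the 23, at 3.95 ± 0.22 (SE, limma adjusted p = 0.00292, n = 3 libraries). Its retained-intron isoforms held 44.7, 52.3 and 52.5 TPM and its protein-coding isoforms 2.19, 3.89 and 3.59 TPM, with no overlap between the classes. Uvrag followed at 3.15 ± 0.20 (limma adjusted p = 0.00292), with 44.7, 69.5 and 56.4 TPM against 4.43, 7.60 and 7.12. The other calls towards retained introns were Pik3r4 at 2.55, Atg4b at 2.46, Atg16l1 at 1.86, Atg16l2 at 1.58, Atg12 at 1.23, Wipi2 at 1.05 and Sqstm1 at 0.89. Becn1, Uvrag and Pik3r4 were the only genes of the phosphatidylinositol 3-kinase complex that were tested. Of the conjugation genes tested, Atg16l1, Atg16l2 and Atg12 were among the 9, Atg3 did not pass and Atg7 was called the other way. For Sqstm1 the retained-intron isoforms held 465, 373 and 430 TPM and the protein-coding ones 194, 220 and 274, and the limma adjusted p was 0.0331. That call was lost when genes of at least 1 TPM were tested (limma adjusted p = 0.0543), without the level filter (limma adjusted p = 0.0735), and when any 1 library was left out (limma adjusted p = 0.0706 to 0.106). The 3 retained-intron isoforms of Sqstm1 cover 1173 bases, of which 533 (45.4%) lie outside protein-coding exons. The share outside was 44.2% for Becn1 and 61.7% for Uvrag.

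Towards protein-coding isoforms the ratios were -2.44 ± 0.35 for Atg7, -2.33 ± 0.38 for Gabarap, -1.50 ± 0.20 for Atg2a, -1.50 ± 0.22 for Atg2b and -1.18 ± 0.27 for Gabarapl2 (SE, limma). Atg7 held 26.7, 40.8 and 36.1 TPM in protein-coding isoforms and 8.33, 7.39 and 3.84 TPM in those with a retained intron. Gabarap held 23.2, 42.1 and 17.3 TPM against 2.27, 11.4 and 4.85 TPM. In both genes the classes did not overlap over the 3 libraries. The genes that did not pass were Nbr1 at 0.70, Rb1cc1 at 0.61, Atg3 at 0.54, Ulk1 at 0.45, Atg4a at 0.10, Map1lc3b at -0.27, Tax1bp1 at -0.29, Atg9a at -0.56 and Atg4d at -0.66. Their limma adjusted p ranged from 0.0607 for Nbr1 to 0.714 for Atg4a. Leaving out replicate 3 ended the calls of Wipi2, Atg12, Atg2a and Gabarapl2 as well as Sqstm1 (limma adjusted p = 0.0513 to 0.125), and leaving out replicate 1 that of Wipi2 (limma adjusted p = 0.0754). Without replicate 2, Atg2b and Gabarapl2 fell under the level filter and 3 calls towards protein-coding isoforms were left. Without the level filter the call of Gabarapl2 was lost (limma adjusted p = 0.0559).

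In the kallisto layout 25 of the autophagy genes passed the level filter. Of these 13 were called towards retained introns and 6 towards protein-coding isoforms, beside 37.2% and 27.7% of all genes tested there. The call of Atg2b was lost and its ratio turned to 0.41 (limma adjusted p = 0.242). Ulk1 at 1.08, Rb1cc1 at 0.84, Atg3 at 1.24 and Nbr1 at 1.42 were called towards retained introns (limma adjusted p = 0.00596 to 0.0264). Tax1bp1 at -0.79 (limma adjusted p = 0.0154) and Atg14 at -0.86 (limma adjusted p = 0.0242) were called towards protein-coding isoforms.

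**Figure D5:**
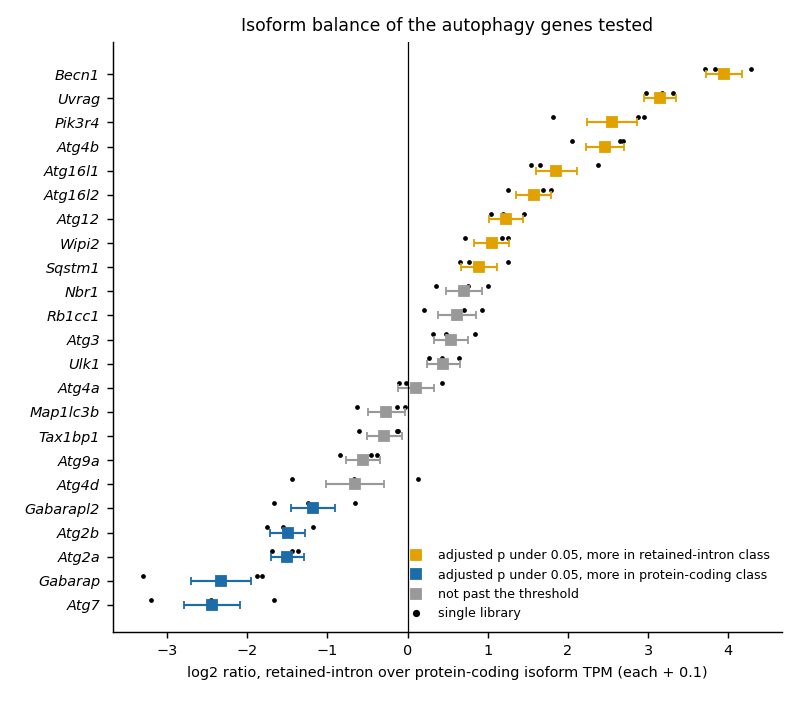
Log2 ratio of retained-intron over protein-coding TPM (each plus 0.1) for the 23 autophagy genes tested, with squares and bars for the mean and limma's SE and dots for single libraries. Becn1 (3.95) and Uvrag (3.15) lie farthest to the right, and Atg7 (-2.44) and Gabarap (-2.33) farthest to the left.

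A ratio of TPM divides by isoform length, so short isoforms weigh more than in counts. With expected counts, not divided by length, 5 of the 23 were called towards retained introns and 13 towards protein-coding isoforms, beside 17.2% and 55.9% of all genes tested. The ratio of Sqstm1 was then -1.81. The directions of Becn1, Uvrag, Pik3r4, Atg4b and Atg16l1 did not change with counts, and those of Wipi2, Atg12 and Atg16l2 did. The quantification in the kallisto layout gave other isoform levels for some genes. The leading isoform was the same in both layouts for 21 of 38 genes and of the same class for 26. For Becn1 it assigned 42.1 TPM to processed transcripts, against 0.637 in the other layout, and 46.9 against 49.8 to retained-intron isoforms, and the whole gene was at 96.3 TPM against 59.8. At the level of whole genes the median ratio of that layout to the other was 1.25 over the autophagy genes and 1.19 over protein-coding genes of at least 1 TPM. A ratio of at least 1.5 was found for 7 of 38 genes, beside 29.3%. The largest were 2.72 for Atg10 and 2.54 for Atg13.

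Further genes of the pathway, 46 that are not among the 38, gave a median of 16.6 ± 3.76 TPM (SD, n = 3). At 10 TPM or more in every library were 27 of 46 (58.7%). The share was 23.2% of protein-coding genes with a count and 36.8% of those with a mean of at least 1 TPM. Vmp1, an endoplasmic reticulum scramblase needed for phagophore growth, was the highest at 270, 402 and 391 TPM, and Tecpr1, which acts in fusion with lysosomes, followed at 145, 184 and 114. In the list of further autophagy factors that holds both, Zfyve1 was the next at 22.6 TPM and Rubcn the lowest at 2.75. Of the transcription factors of lysosome and autophagy genes, Mitf averaged 49.3, Tfe3 44.99 and Zkscan3 33.2 TPM, and Foxo3 was the lowest at 4.49. With protein-coding isoforms only the order changed, to 31.6 TPM for Zkscan3, 22.7 for Mitf and 6.03 for Tfe3. Upstream of ULK1, the mTORC1 subunit gene Rptor averaged 39.9 TPM, its activator Rheb 35.02 and the AMPK subunit gene Prkab1 18.4. Here too the order did not hold with protein-coding isoforms only. Rptor then averaged 1.91 TPM, Rheb 4.69 and Prkab1 6.59, while Mtor, at 16.3 TPM over all isoforms, kept 13.7. Prkaa2, an AMPK catalytic subunit, had counts only in replicate 2, where 7 were found. Among the fusion factors, the HOPS subunit genes Vps16 and Vps41 averaged 79.7 and 40.6 TPM and the SNARE gene Vamp8 38.0, with Snap29 the lowest at 5.51. Protein-coding isoforms alone gave 17.5 TPM for Vps16, 20.4 for Vps41 and 38.0 for Vamp8. Of the other cargo receptors and selectivity factors, Wdfy3 averaged 82.2, Ncoa4 42.9 and Tollip 26.6 TPM. Pink1, the mitochondrial kinase of mitophagy, was the lowest there at 0.17, 3.29 and 0.43 TPM. It was highest in replicate 2, as were 40 of the 46 genes, beside 7718 of the 10011 protein-coding genes with a mean of at least 1 TPM. By the same limma test 25 of the 46 could be tested, and 8 had more RNA in retained-intron isoforms and 8 in protein-coding ones, beside 24.3% and 25.6% of all genes tested. Rptor, at 4.46 ± 0.57, and Wdfy3, at -6.94 ± 0.29 (SE), were at the ends of that range, with a median of -0.32.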

How the data were processed

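Members and gene lists were chosen with earlier results of these data known. Expected counts and TPM per gene and isoform, in the layout RSEM writes, were made by the authors on mm10 and GENCODE M21 from reads aligned to transcripts, per the file headers and notes. Tables in the kallisto layout, also deposited by the authors, give TPM and estimated counts per isoform. Effective lengths came from the same deposited tables. Not given in the sources used here: aligner, strand setting, versions of the authors' tools. Rows naming no gene, 1.94, 0.269 and 0.386% of counts in replicates 1, 2 and 3, were left out. The levels are maximum likelihood TPM.

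Isoform classes came from the M21 annotation. The class test (R 4.3.3, limma 3.58.1) took log2 ratios of summed TPM with a pseudocount of 0.1, over genes with a mean of at least 5 TPM, with Benjamini-Hochberg adjustment at 0.05. The method was tested on simulated data. TMM factors came from edgeR 4.0.16 on the deposited expected counts. Ratios of paralogs used an exact sign-flip test. Tables were handled with Python 3.11.15, pandas 2.3.3 and scipy 1.17.1. Replicates differed beyond sampling noise, with a chi-square per gene of at least 68.6. All 38 genes are named, and of the other pathway genes, in each role, the 3 highest and the lowest with over 3 counts. Alternatives covered the other layout, posterior means, scaling, pseudocounts, filters, counts in place of TPM, and leaving out each replicate.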

Additional observations from a re-analysis of the deposited data

How the results depend on the processing

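Depth limits the low genes most, since 3 counts are 0.174 to 0.238 CPM and Map1lc3a and Wipi1 rest on under 20 counts outside replicate 2. No paired analysis was possible because all samples form 1 group. The median level of 13.2 TPM became 42.2 TPM when protein-coding genes alone set the scale and 5.41 TPM with protein-coding isoforms only, both by construction; leaving out 1 replicate gave 10.7 to 15.5. With TMM factors in place of TPM, chosen after seeing the data, 3 genes against 8 were at least 2-fold higher in replicate 2 and 20 against 2 were lower there.

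Over all genes, those called towards retained introns numbered 1810 in the kallisto layout, against 1049, and 351 to 901 without 1 replicate. Those called towards protein-coding isoforms numbered 2408 with expected counts, against 1104, and 473 to 849 without 1 replicate. Of the autophagy genes, 5 and 13 were called with expected counts, against 9 and 5, and 6 to 8 and 3 to 5 without 1 replicate, where fewer samples and fewer genes enter.

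The isoform ratio reversed with expected counts for Ulk1 (-3.23), Rb1cc1 (-1.21), Wipi2 (-0.12), Atg12 (-0.46), Atg16l2 (-2.28), Atg4a (-1.94), Map1lc3b (0.51), Sqstm1 (-1.81) and Nbr1 (-2.59), where long isoforms weigh more. In the kallisto layout it reversed for Atg2b (0.41), Atg4a (-0.16), Atg4d (0.73) and Map1lc3b (0.36), and it ranged from -0.061 to 0.21 for Atg4a when 1 replicate was left out; the cause was not tested. Among the paralogs, Atg4a over Atg4b became 1.10 with protein-coding isoforms only, and Gabarapl1 over Gabarapl2 ranged from -0.018 to 0.31 when 1 replicate was left out. Pseudocounts of 0.01 and 1 reversed no ratio.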
